A study of Homo sapiens with 6 samples.

Results

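The 35 genes described here encode enzymes that make and interconvert amino acids (21 genes) and carriers that move amino acids across membranes (14 genes). They were taken by symbol from a deposited table of 54308 genes, and each of the 35 had a value in all 6 libraries. Serine is made from a glycolytic intermediate by PHGDH, PSAT1 and PSPH. SHMT enzymes pass a carbon of serine to folate, and MTHFD enzymes carry that unit onward in the cytosol and in mitochondria for purine and thymidylate synthesis. Transsulfuration by CBS and CTH turns homocysteine into cysteine, and SLC7A11 with its partner SLC3A2 brings cystine in from outside. Many of these genes are known targets of ATF4, a transcription factor translated when amino acids are short, which binds as a dimer with C/EBP proteins.

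RNA came from 143B, an established human osteosarcoma (OS) cell line that grows fast and metastasizes in mice. In the vector control (VC) group, 3 libraries were made from cells that had received the control plasmid. In the CNTNAP4 KO group, 3 libraries were made from cells that had received a plasmid encoding Cas9, a red fluorescent protein and a guide RNA against CNTNAP4, a cell surface protein of the neurexin family. The labels place both groups 48 h after transfection, whereas the methods of the study describe a longer interval and then expansion of colonies from single sorted fluorescent cells. Both groups shared the parental line, the culture medium with fetal bovine serum and the transient transfection. Neither source says which colony gave which library, so a difference between the groups cannot be told apart from a difference between colonies, and the p-values measure only the spread between these libraries, which may be technical.

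The reference promoters of these genes were searched for the core of the ATF4-C/EBP composite element, TGATGNAA, on both strands, because many of these genes are known ATF4 targets. RefSeq windows of 250 bases before to 50 after each transcript start (GRCh38.p14) were at hand for 28 of the 35 genes. The core lay in at least 1 window of 10 of the 28 (35.7%), against 414 of 13441 tested genes with a window (3.08%) and 1217 of 27305 genes with a window (4.46%). The genes had 50 windows, of which 12 held the core (24%), against 2.28% of the 19249 windows of tested genes. The 10 matches are printed with up to 10 bases on each side, 5′ to 3′ in the direction of the motif, and capitals mark the match.
ASNS: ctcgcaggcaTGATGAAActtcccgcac
BCAT1: gtcttcctgcTGATGCAAtccgctaggt
GOT1: ctgccgagaaTGATGCAAccaatgcaat
MTHFD1L: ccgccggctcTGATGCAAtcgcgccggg
SLC1A3: aggaaatgacTGATGCAAagcagggtta
SLC1A4: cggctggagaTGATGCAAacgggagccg
SLC1A5: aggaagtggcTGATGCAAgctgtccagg
SLC38A1: cagacccgaaTGATGAAAagggatcagc
SLC3A2: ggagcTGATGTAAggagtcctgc
SLC7A1: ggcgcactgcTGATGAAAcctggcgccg

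Positions from the transcript start, whose first transcribed base is 1, are those of the match, and the coordinates in parentheses are those of the whole printed stretch. The ASNS match lay upstream of the start, from -68 to -61 (chr7:97872459-97872486, minus strand), and so did those of BCAT1 from -48 to -41 (chr12:24949132-24949159, minus), SLC1A5 from -97 to -90 (chr19:46784894-46784921, minus) and GOT1 from -198 to -191 (chr10:99430805-99430832, plus, on the strand opposite to the gene). The SLC1A3 match lay farthest upstream, from -220 to -213 (chr5:36596358-36596385, plus). Matches of SLC38A1 from -4 to 4 (chr12:46266503-46266530, minus) and SLC1A4 from -7 to 1 (chr2:64989382-64989409, minus, opposite to the gene) spanned the start. Those of SLC7A1 from 8 to 15 (chr13:29595664-29595691, minus), MTHFD1L from 25 to 32 (chr6:150866347-150866374, plus) and SLC3A2 from 38 to 45 (chr11:62881726-62881748, minus, opposite to the gene) lay in the transcribed part of the window. MTHFD1L has several annotated starts, and the same match fell in 3 of its windows. Counted from the other starts it lay upstream, from -90 to -83 and from -129 to -122. The letter at the open position was C in 6 of the matches, A in 3 and T in 1.

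The deposited values were log2 signals, quantile-normalized between libraries, with a median of 0.62 in every library. The number of reads per library is unknown, so no interval for counting error is given. The targeted gene gave no check of the labels, since CNTNAP4 had a value in VC replicate 3 (-7.18) and in no other library. Defining mesenchymal genes were present, with mean signals in VC and KO of 10.4 and 10.8 for VIM and 6.50 and 6.87 for SPARC, whereas COL1A2 was low (-4.81 and -5.62). Of 4 leukocyte markers, 1 had enough values to be tested (PTPRC, -4.62 and -5.80), and the 3 endothelial markers had group means of -4.86 or lower. Of 3 epithelial markers, 1 had enough values, EPCAM, which was at 1.71 and 1.04 and fell (adjusted p = 0.0157), and its part in the results was not tested. Of all tested genes, 6354 of 19306 (32.9%) passed the threshold of an adjusted p under 0.05 in limma, 2526 (13.1%) with a higher and 3828 (19.8%) with a lower signal in KO. The median of 0.62 was over all genes with a value in a library. With each library centred on the median of its tested genes, the split was 3141 higher and 3066 lower.

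Among the 35 genes, 29 passed the threshold (82.9%), against 32.9% of all tested genes. The signal of 23 rose in KO (65.7%, against 13.1% of all genes) and that of 6 fell (17.1%, against 19.8%). Genes with higher signal passed more often. In a fit of the 9653 genes in the upper 50% of mean signal, 59.1% passed, 2263 higher and 3439 lower. That fit held 33 of the 35 genes, of which 28 passed, 23 higher and 5 lower. In bulk RNA, fewer cells with a transcript and less of it per cell cannot be told apart. The median log2 fold change of the 35 was 0.50 and that of all tested genes -0.13. A rise of at least 2-fold was seen in 12 of the 35 and in 792 of all genes (4.1%). The ranges of the groups did not overlap for 32 of the 35, with KO above VC for 23 and below for 9, which was also so for 59.3% of all genes with 6 values. Enzymes and carriers both took part, with 13 of 21 enzymes higher and 3 lower, and 10 of 14 carriers higher and 3 lower.

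These counts changed with the library that was left out. In fits without VC replicate 1, VC replicate 2, VC replicate 3 or KO replicate 3, the number of the 35 that passed fell to 10, 13, 9 and 15, while the share of all genes that passed fell to 7.54%, 13.1%, 6.57% and 10.9%. Without KO replicate 1 or KO replicate 2, 29 and 24 of the 35 passed, beside 47.0% and 23.6% of all genes. PSAT1, PSPH, MTHFD2, ASNS, CTH, SLC3A2, SLC7A5, SLC7A11 and SLC6A9 passed in each of the 6 fits that left out 1 library. For the other 20 genes, the highest adjusted p over those fits ran from 0.0521 (SHMT2) to 0.121 (SLC38A2), with the direction kept in each fit.

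**Figure D1:**
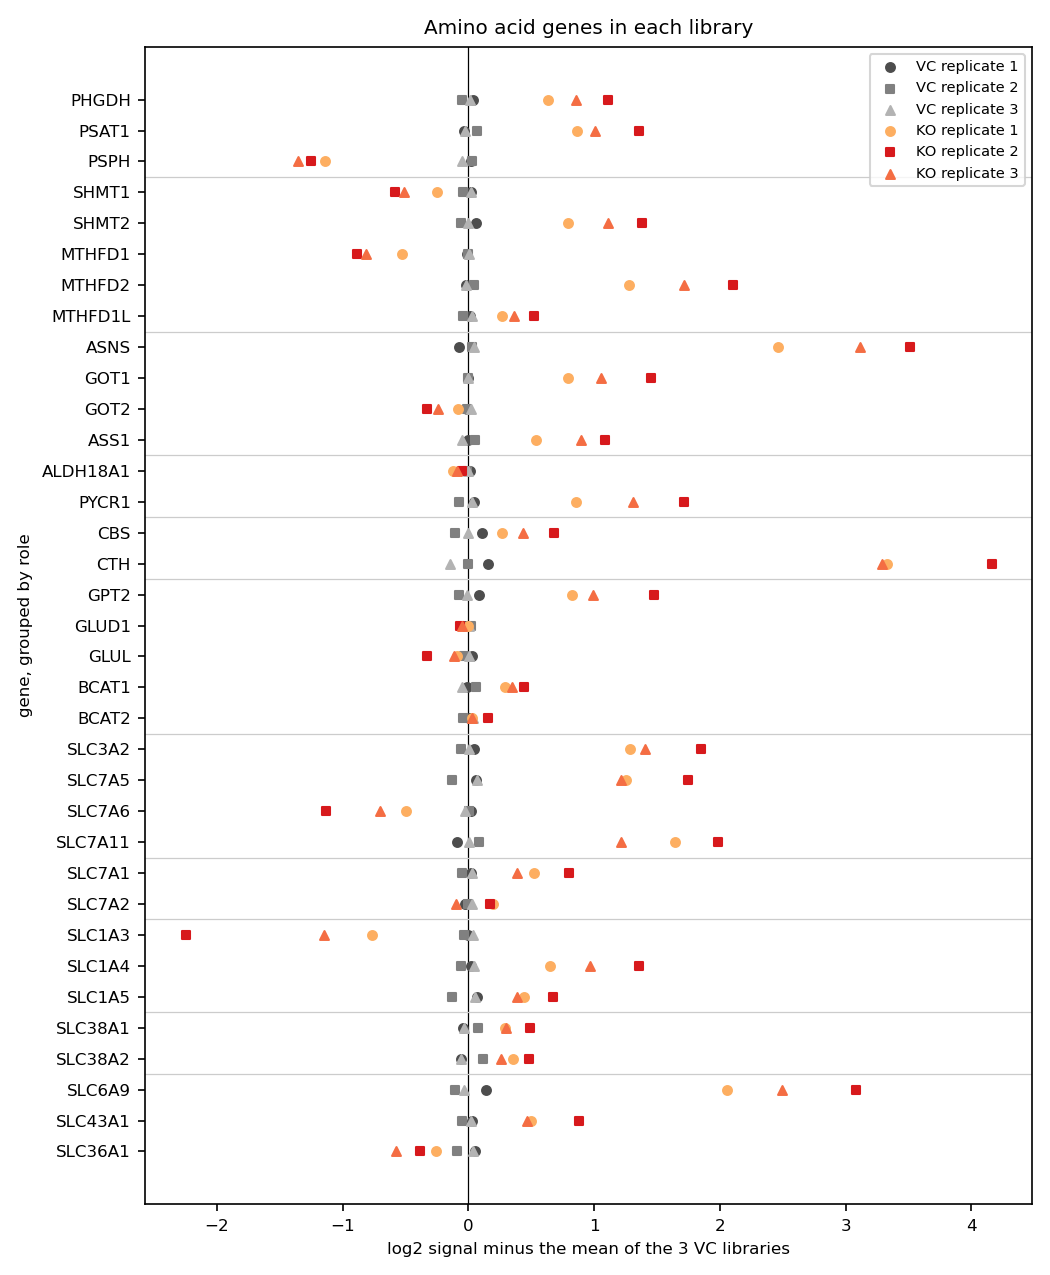
Each row is a gene, grouped by role, and each point is a library, drawn as its log2 signal minus the mean of the 3 VC libraries, with grey for VC and orange to red for KO. The VC points lie close to 0 in every row, and the KO points lie farthest to the right for CTH, ASNS and SLC6A9 and farthest to the left for SLC1A3 and PSPH.

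The serine synthesis enzymes did not move together. PHGDH and PSAT1, which catalyse the first and second steps, rose, while PSPH, the phosphatase of the last step, fell. PHGDH had log2 signals of 7.38, 7.29 and 7.35 in VC replicates 1 to 3 and of 7.97, 8.45 and 8.20 in KO replicates 1 to 3. The KO values all lay above the VC values, with a log2 fold change of 0.87 (SE 0.13, n = 3 and 3, limma adjusted p = 0.0137). PSAT1 had 7.09, 7.20 and 7.10 in VC and 7.99, 8.48 and 8.14 in KO, a log2 fold change of 1.08 (SE 0.14, limma adjusted p = 0.0106). PSPH had 5.34, 5.34 and 5.27 in VC and 4.18, 4.07 and 3.96 in KO. All KO values of PSPH lay below the VC values, and its signal fell by 1.25 on the log2 scale (SE 0.083, limma adjusted p = 0.00571).

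The 5 folate enzymes of the set split by compartment. The mitochondrial forms SHMT2, MTHFD2 and MTHFD1L rose, and the cytosolic forms SHMT1 and MTHFD1 fell. SHMT2, which releases glycine from serine in mitochondria, had 6.07, 5.94 and 6.0 in VC and 6.79, 7.39 and 7.11 in KO (log2 fold change 1.09, SE 0.16, limma adjusted p = 0.0128). MTHFD2, which oxidizes the mitochondrial folate that carries the unit, had 4.88, 4.94 and 4.88 in VC and 6.18, 7.01 and 6.61 in KO (1.70, SE 0.22, adjusted p = 0.0101). For both, the lowest KO value exceeded the highest VC value. MTHFD1L, which frees formate from mitochondrial folate, rose by 0.38 (SE 0.089, adjusted p = 0.0298). MTHFD1, the cytosolic enzyme with several folate activities, had 6.96, 6.97 and 6.97 in VC and 6.44, 6.08 and 6.16 in KO, and fell by 0.74 on the log2 scale (SE 0.11, adjusted p = 0.0132). SHMT1 fell by 0.45 (SE 0.11, adjusted p = 0.0312). In the 6 fits without 1 library, MTHFD2 passed in 6, SHMT2 in 5, MTHFD1 in 4, MTHFD1L in 2 and SHMT1 in 1. Of 20 tested neighbours on the chromosome, 9 rose and 1 fell around SHMT2, 8 and 0 around MTHFD1L and 4 and 3 around MTHFD2. Around MTHFD1, 1 rose and 8 fell, and around SHMT1 0 and 5, beside 13.1% and 19.8% of all tested genes. The part of the neighbourhood in the split was not tested. Mitochondrial genes of folate and glycine metabolism outside the set did not all rise. ALDH1L2 rose by 1.84 (adjusted p = 0.0133), while MTHFD2L, a relative of MTHFD2, differed by -0.033 with overlapping groups (adjusted p = 0.827). In the glycine cleavage system, GLDC and GCSH fell by 0.52 and 0.31. AMT of that system was higher by 0.96 without passing (adjusted p = 0.0605), and DLD differed by -0.0067 (adjusted p = 0.946). The mitochondrial carriers SLC25A32 for folate and SFXN1 for serine fell by 0.51 and 0.42. Adjusted p-values of GLDC, GCSH, SLC25A32 and SFXN1 were between 0.0134 and 0.0452.

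Whether the forms of one reaction changed by different amounts was compared by the log2 ratio of the mitochondrial to the cytosolic signal within each library. The scale of each gene is its own, so only the change of a ratio between groups has meaning. The SHMT2 to SHMT1 ratio was higher in KO by 1.54, at 1.90 ± 0.041 in VC and 3.44 ± 0.46 in KO (SD, n = 3 each). The MTHFD1L to MTHFD1 ratio was higher in KO by 1.13, at -4.20 ± 0.038 in VC and -3.07 ± 0.31 in KO. The shift was not towards mitochondria in every pair. The GOT2 to GOT1 ratio was 1.70 ± 0.019 in VC and 0.38 ± 0.46 in KO, a difference of -1.32, and the BCAT2 to BCAT1 ratio was -0.68 ± 0.097 and -0.97 ± 0.029, a difference of -0.29. In all 4 pairs the KO ratios lay on one side of the VC ratios, and the two-sided exact permutation p was 0.1 for each, also after adjustment over the 4 pairs, which is the smallest p that 3 against 3 libraries allow.

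**Figure D2:**
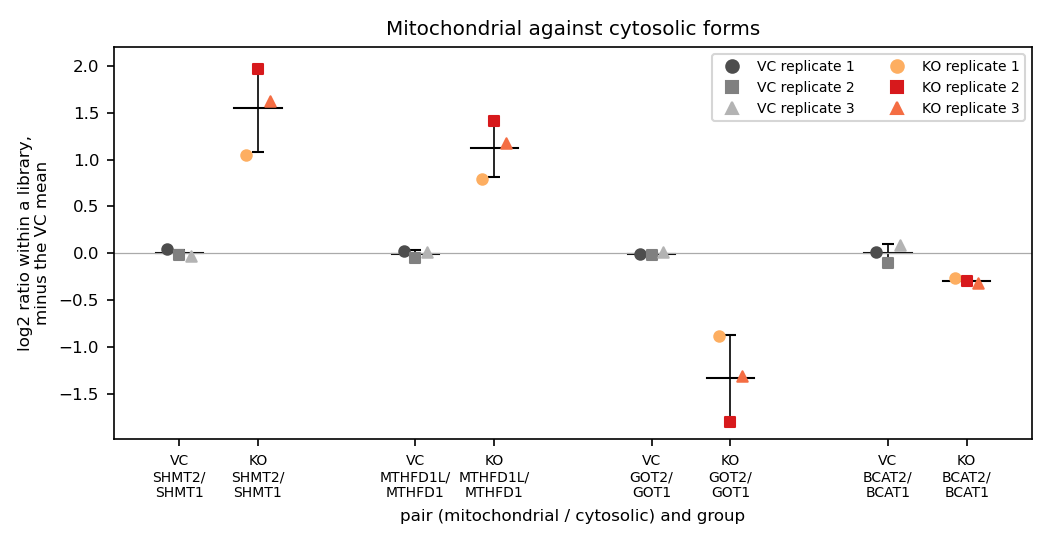
The vertical axis is the log2 ratio of the mitochondrial to the cytosolic form within a library, minus the VC mean, with a point per library, the group mean as a horizontal line and the SD as a bar. The KO ratios moved up by 1.54 for SHMT2/SHMT1 and 1.13 for MTHFD1L/MTHFD1 and down for GOT2/GOT1 (-1.32) and BCAT2/BCAT1 (-0.29), with no KO point inside the VC range.

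Among the enzymes of asparagine, aspartate and arginine, ASNS showed the second largest rise of the 35 genes. ASNS, which makes asparagine from aspartate and glutamine, had 3.35, 3.45 and 3.47 in VC and 5.89, 6.93 and 6.54 in KO, an 8.17-fold difference (log2 fold change 3.03, SE 0.27, limma adjusted p = 0.00722). GOT1, the cytosolic aspartate aminotransferase, was at 5.04 in all 3 VC libraries and at 5.83, 6.50 and 6.10 in KO (1.10, SE 0.18, adjusted p = 0.0143). ASS1, which joins citrulline to aspartate on the way to arginine, had 1.92, 1.97 and 1.87 in VC and 2.46, 3.01 and 2.81 in KO (0.84, SE 0.15, adjusted p = 0.0180). The KO values of these 3 genes lay above all VC values. GOT2, the mitochondrial aminotransferase, did not pass the threshold. Its log2 fold change was -0.22, with a 95% interval from -0.44 to -0.00041 and an adjusted p of 0.104, and its KO values lay below its VC values. The pseudogene ASNSP1, which resembles ASNS, differed by 2.41 (log2, adjusted p = 0.0631), and reads of the gene and the copy may be split between them. Signals of ASNSP1 ran from -6.41 to -2.64, below every ASNS value, and VC replicate 2 had none. CZ1P-ASNS, listed under a name that includes ASNS, differed by 0.22 (adjusted p = 0.465).

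CTH and PYCR1 led the cysteine and proline enzymes. CTH, which releases cysteine from cystathionine, showed the largest rise of the 35 genes. Its log2 signals were -0.19, -0.35 and -0.50 in VC and 2.98, 3.82 and 2.94 in KO, a 12.1-fold difference (log2 fold change 3.59, SE 0.26, limma adjusted p = 0.00571). The VC level of CTH was low, and after adding 1 to linear signals the log2 difference came to 2.56 (adjusted p = 0.00343). CBS, which makes cystathionine, rose by 0.46 (SE 0.13, adjusted p = 0.0456). The near-identical copy CBSL was listed separately, with overlapping groups and a log2 difference of 0.85 (adjusted p = 0.147), so the division of reads between CBS and CBSL is uncertain. PYCR1, the mitochondrial enzyme of the last step to proline, had 4.79, 4.67 and 4.77 in VC and 5.60, 6.46 and 6.05 in KO (1.29, SE 0.23, adjusted p = 0.0163). ALDH18A1, which catalyses the first steps to proline, differed by -0.088 on the log2 scale (95% interval -0.25 to 0.070, adjusted p = 0.316).

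The enzymes that trade amino groups with glutamate were split. GPT2, the mitochondrial alanine aminotransferase, had 3.10, 2.94 and 3.00 in VC and 3.84, 4.49 and 4.01 in KO (log2 fold change 1.10, SE 0.18, limma adjusted p = 0.0152). BCAT1, the cytosolic aminotransferase of branched-chain amino acids, rose by 0.36 (SE 0.076, adjusted p = 0.0248). Its mitochondrial counterpart BCAT2 differed by 0.071 (95% interval -0.11 to 0.25, adjusted p = 0.477), with overlapping groups. GLUD1, the glutamate dehydrogenase, was at -0.039 (-0.20 to 0.12, adjusted p = 0.661) and also overlapped. Centring each library on its median moved the value of GLUD1 to 0.049, so its direction was not determined. GLUL, the glutamine synthetase, was at -0.18 (-0.41 to 0.047, adjusted p = 0.173).

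Of the 4 carriers of the set that work as a heavy and a light chain, 3 rose and SLC7A6 fell. SLC3A2, the shared heavy chain, had 5.41, 5.31 and 5.37 in VC and 6.65, 7.22 and 6.77 in KO (log2 fold change 1.51, SE 0.16, limma adjusted p = 0.00857). SLC7A5, the light chain for large neutral amino acids such as leucine, had 5.82, 5.63 and 5.83 in VC and 7.01, 7.51 and 6.97 in KO (1.40, SE 0.17, adjusted p = 0.00963). SLC7A11, the light chain that exchanges cystine for glutamate, had 1.49, 1.66 and 1.58 in VC and 3.22, 3.56 and 2.79 in KO (1.61, SE 0.21, adjusted p = 0.0101). In each of these carriers the lowest KO library was more than 1 log2 unit above the VC mean. SLC7A6, a light chain that exchanges cationic for neutral amino acids, had 4.15, 4.13 and 4.09 in VC and 3.63, 2.99 and 3.42 in KO, and fell by 0.78 on the log2 scale (SE 0.17, adjusted p = 0.0276). The copy SLC7A5P2 rose with SLC7A5 (0.86, adjusted p = 0.0227), and reads may be shared between them. The 4 tested carriers of this kind outside the set did not rise. The heavy chain SLC3A1 fell by 0.85 (adjusted p = 0.0456) from a low level, and the light chains SLC7A7, SLC7A8 and SLC7A9 differed by -0.46, -0.18 and -0.41, with adjusted p-values of 0.571, 0.532 and 0.637. SLC7A6OS, listed under a name derived from SLC7A6, differed by -0.19 (adjusted p = 0.0951).

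SLC6A9, a glycine carrier, rose most among the 14 carriers. It had 0.40, 0.16 and 0.23 in VC and 2.32, 3.34 and 2.75 in KO, a 5.83-fold difference (log2 fold change 2.54, SE 0.27, limma adjusted p = 0.00847). After adding 1 to linear signals the log2 difference of SLC6A9 came to 1.87. SLC1A4, which carries alanine, serine and cysteine, had 2.42, 2.34 and 2.45 in VC and 3.05, 3.76 and 3.37 in KO (0.99, SE 0.19, adjusted p = 0.0196). SLC43A1, which carries large neutral amino acids, had 2.69, 2.61 and 2.69 in VC and 3.16, 3.55 and 3.13 in KO (0.62, SE 0.13, adjusted p = 0.0253). The KO values of these 3 carriers lay above all VC values.

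SLC1A3, a glutamate and aspartate carrier, fell and varied most between KO libraries. It had 1.23, 1.20 and 1.27 in VC and 0.47, -1.01 and 0.088 in KO, and fell by 1.39 on the log2 scale (SE 0.39, limma adjusted p = 0.0456). After adding 1 to linear signals the log2 difference of SLC1A3 came to -0.79 (adjusted p = 0.0217), and with libraries centred on their median the adjusted p was 0.0507. SLC36A1, a lysosomal and plasma membrane carrier of small amino acids, fell by 0.40 (SE 0.11, adjusted p = 0.0403) and by 0.20 with 1 added, and it too missed the threshold after centring (adjusted p = 0.0508).

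The remaining carriers showed small differences. SLC7A1, for arginine and lysine, rose by 0.57 (SE 0.12, limma adjusted p = 0.0257), and SLC1A5, the main glutamine carrier, by 0.50 (SE 0.11, adjusted p = 0.0269). SLC38A1 and SLC38A2, sodium-coupled carriers of glutamine and other neutral amino acids, each rose by 0.36, with adjusted p-values of 0.0335 and 0.0388. SLC38A2 passed in none of the 6 fits that left out 1 library. SLC7A2, a cationic carrier like SLC7A1, differed by 0.090 (95% interval -0.17 to 0.35, adjusted p = 0.523), with overlapping groups.

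**Figure D3:**
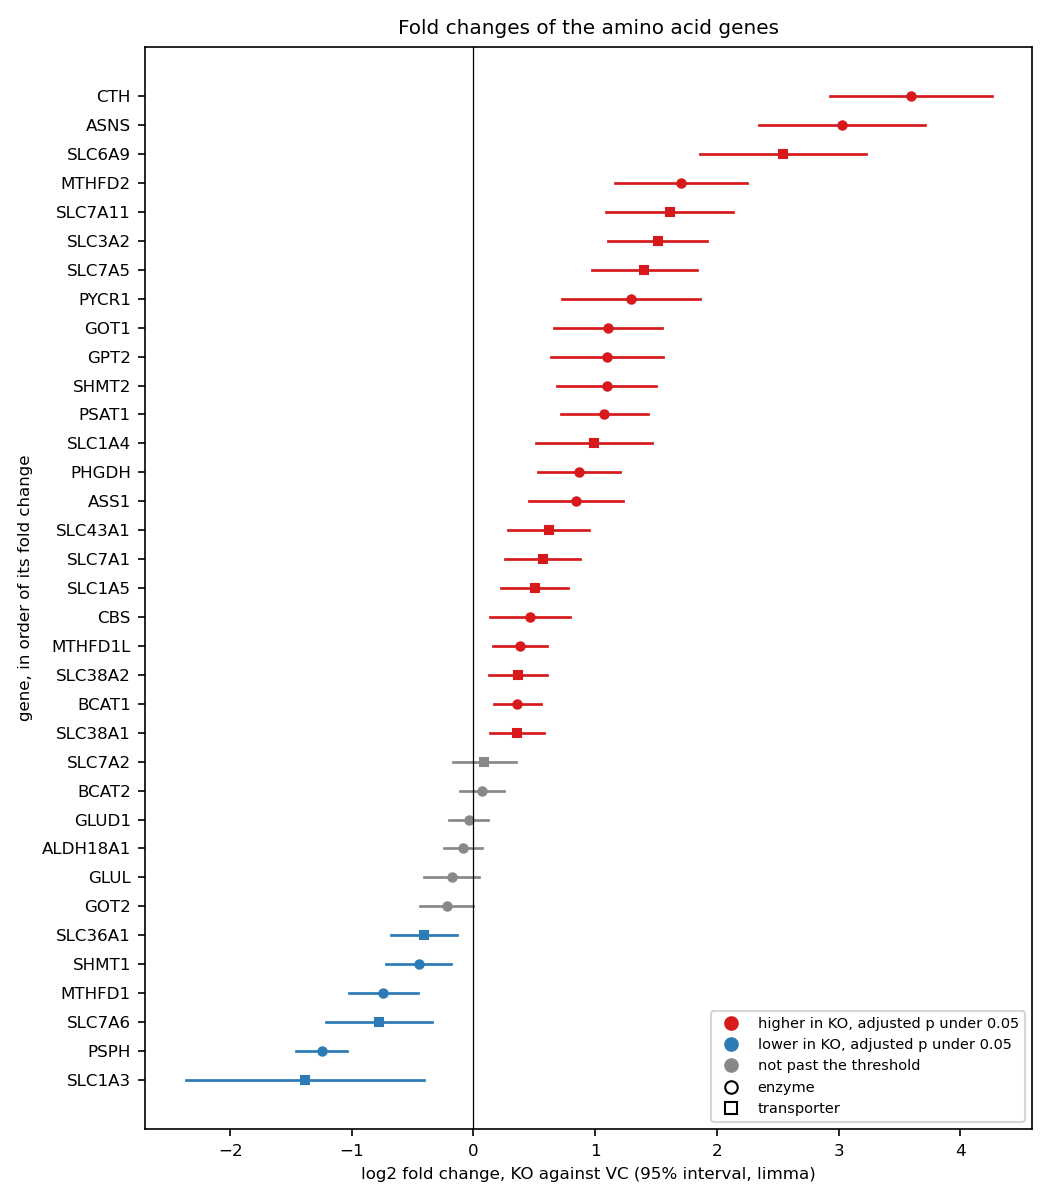
Each row is a gene in order of its log2 fold change, KO against VC (horizontal axis), with its 95% interval from limma, circles for enzymes and squares for carriers. The 23 genes that rose run from SLC38A1 (0.36) to CTH (3.59), the 6 that fell from SLC36A1 (-0.40) to SLC1A3 (-1.39), and the 6 grey genes between them did not pass the threshold.

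The KO libraries differed in the size of the shift. KO replicate 2 lay farthest from the VC mean for 27 of the 29 genes that passed (93.1%), among them all 23 that rose, and for 4651 of 6166 genes with 6 values that passed in the whole table (75.4%). The mean deviation of the 35 genes from their own means over the 6 libraries was 0.22, 0.47 and 0.25 in KO replicates 1 to 3 and between -0.33 and -0.30 in VC. The same libraries also differed in cell cycle genes. The mean deviation of 8 G2/M genes was -0.18, -0.67 and -0.46 in KO and between 0.41 and 0.49 in VC, all 8 fell, with a median log2 fold change of -0.86, and their part in the amino acid result was not tested. Without KO replicate 2, 24 of the 35 genes passed, 20 higher and 4 lower, against 23.6% of all genes.

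Returning to the promoter matches, 9 of the 10 genes with the ATF4-C/EBP core rose and SLC1A3 fell. By direction, the core was found in 9 of the 19 genes that rose and have a window (47.4%), in 1 of the 5 that fell (20.0%) and in 0 of the 4 that did not pass, against 3.08% of tested genes. Counted by window, it was in 11 of 37 (29.7%), 1 of 8 (12.5%) and 0 of 5, against 2.28% of the windows of tested genes. Many of the genes were known ATF4 targets before the search, so a higher share than in all genes may follow from their choice. The share among all genes that rose was not computed. CTH, SLC6A9, MTHFD2, PSAT1 and SLC7A5 rose without these letters in their windows. The E-box CACGTG was in 9 of the 28 genes (32.1%) against 11.9% of tested genes. It was in 6 of the 19 that rose and 2 of the 5 that fell. The antioxidant response core TGACNNNGC was in 9 of 28 (32.1%) against 18.7%, again 6 of the 19 and 2 of the 5. No match of one motif overlapped a match of another. A match describes the reference sequence, and binding was not measured.

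**Figure D4:**
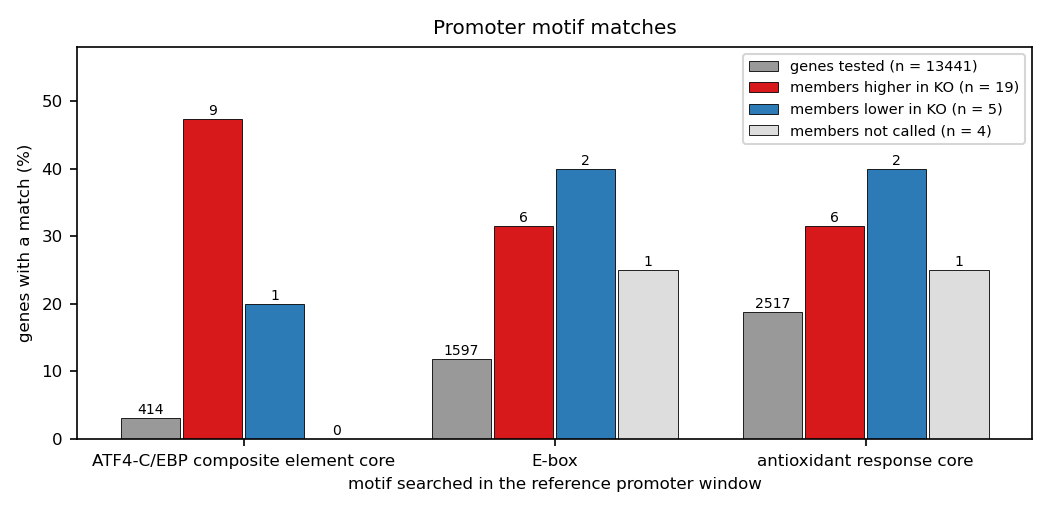
The vertical axis is the percentage of genes with at least 1 match in a reference promoter window, for 3 motifs, with grey for tested genes and colours for the amino acid genes by direction (numbers above the bars are genes with a match). The ATF4-C/EBP core was found in 9 of the 19 genes that rose and in 3.08% of tested genes, and the bars of the groups of 5 and 4 genes rest on few genes.

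Genes of the ATF4 pathway itself were also higher. Of 14 listed regulators, 9 rose (64.3%, against 13.1% of all genes) and 3 fell (21.4%, near the 19.8% of all genes), with a median log2 fold change of 0.71. The largest changes were in DDIT3 (4.34, limma adjusted p = 0.00478), TRIB3 (2.31, adjusted p = 0.00815) and ATF3 (2.16, adjusted p = 0.0107), which ATF4 is known to induce. ATF4, named here because its motif was searched, had 5.37, 5.35 and 5.35 in VC and 6.46, 6.95 and 6.67 in KO (1.34, SE 0.14, adjusted p = 0.00815). The C/EBP genes CEBPB and CEBPG, named for the same reason, rose by 1.71 and 1.16, with adjusted p-values of 0.00912 and 0.0107. The 3 that fell were ATF5 (-0.99), a relative of ATF4, and the eIF2α kinases EIF2AK1 (-0.55) and EIF2AK4 (-0.51), of which EIF2AK4 senses uncharged tRNA. A further kinase of this group, EIF2AK3, which responds to stress of the endoplasmic reticulum, rose by 0.70 (adjusted p = 0.0157). The remaining listed regulators that rose were MYC (0.73, adjusted p = 0.0278) and NFE2L2 (0.53, adjusted p = 0.0182).

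Other genes of these pathways passed in both directions. Of 97 further enzymes and carriers, 73 were tested and 40 passed (54.8%, against 32.9% of all genes), 15 higher (20.5%, against 13.1%) and 25 lower (34.2%, against 19.8%). With libraries centred on their median the split was 17 higher and 16 lower. In the fit of genes in the upper 50% of mean signal, 34 of 48 passed (70.8%), 13 higher and 21 lower. Of all genes in that fit, 59.1% passed. Without VC replicate 1, VC replicate 2, VC replicate 3, KO replicate 2 or KO replicate 3 the number that passed was 7, 16, 6, 26 and 16, or 9.59%, 22.2%, 8.33%, 37.1% and 21.9% of those tested, while 7.54%, 13.1%, 6.57%, 23.6% and 10.9% of all genes passed. Among folate, glycine and methionine enzymes, 3 of 26 rose (11.5%) and 11 fell (42.3%), with a median log2 fold change of -0.26. ALDH1L2, a mitochondrial folate dehydrogenase, rose by 1.84 (limma adjusted p = 0.0133), SDSL, a serine dehydratase, rose by 0.91 (adjusted p = 0.0133), and TYMS, the thymidylate synthase, fell by 1.01 (adjusted p = 0.0146). Among proline, glutamine, aspartate, arginine and branched-chain enzymes, 8 of 25 rose and 8 fell (32% each). The largest changes there were rises of ARG2, a mitochondrial arginase (2.04, adjusted p = 0.0137), SAT1, which acetylates polyamines (1.76, adjusted p = 0.00993), and BCKDHA, a subunit of the branched-chain ketoacid dehydrogenase (1.5, adjusted p = 0.0136). Among further carriers, 4 of 22 rose (18.2%) and 6 fell (27.3%), shares near those of all genes (13.1% and 19.8%). SLC7A3, a cationic carrier, rose by 2.66 (adjusted p = 0.00846) and SLC16A10, a carrier of aromatic amino acids, fell by 1.60 (adjusted p = 0.0202). SLC6A17 rose by 1.51 (adjusted p = 0.010), but it had 4 values, all at or below -6.94, near the bottom of the scale.

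The genes next to each of the 35 on the chromosome were compared as well, a comparison chosen after the values had been seen. For each gene, the 10 tested genes on either side in RefSeq order were taken. The median log2 fold change of these 20 neighbours ranged from -0.94 around PSPH to 0.36 around SHMT2. Of all tested genes, 19.8% fell and 13.1% rose past the threshold. Around PSPH, 11 of the 20 neighbours fell and 0 rose. The nearest ones included NIPSNAP2 (-1.20, limma adjusted p = 0.00571) and CCT6A (-1.55, adjusted p = 0.00478), and farther ones EGFR (-1.30) and LANCL2 (-1.27), beside -1.25 for PSPH itself. The median over the 866 genes of chromosome 7 was -0.19. Around MTHFD1, 8 neighbours fell and 1 rose, with a median of -0.52, where the median over the 561 genes of chromosome 14 was -0.39. Around SHMT1 5 fell and 0 rose, around SLC7A6 6 fell and 0 rose, and around SLC1A3 3 fell and 2 rose. Medians there were -0.046, -0.35 and -0.19. Around some genes that rose, neighbours rose too, 9 of 20 around SHMT2 (1 fell), 8 around MTHFD1L (0 fell) and 6 around PHGDH (0 fell), and 9 rose around SLC36A1 (1 fell), which itself fell. For the 3 genes with the largest rises, the medians of the neighbours were -0.22 around CTH, -0.066 around ASNS and 0.009 around SLC6A9, beside -0.13 over all tested genes. Whether the number of copies of these regions differed between the libraries was not tested.

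**Figure D5:**
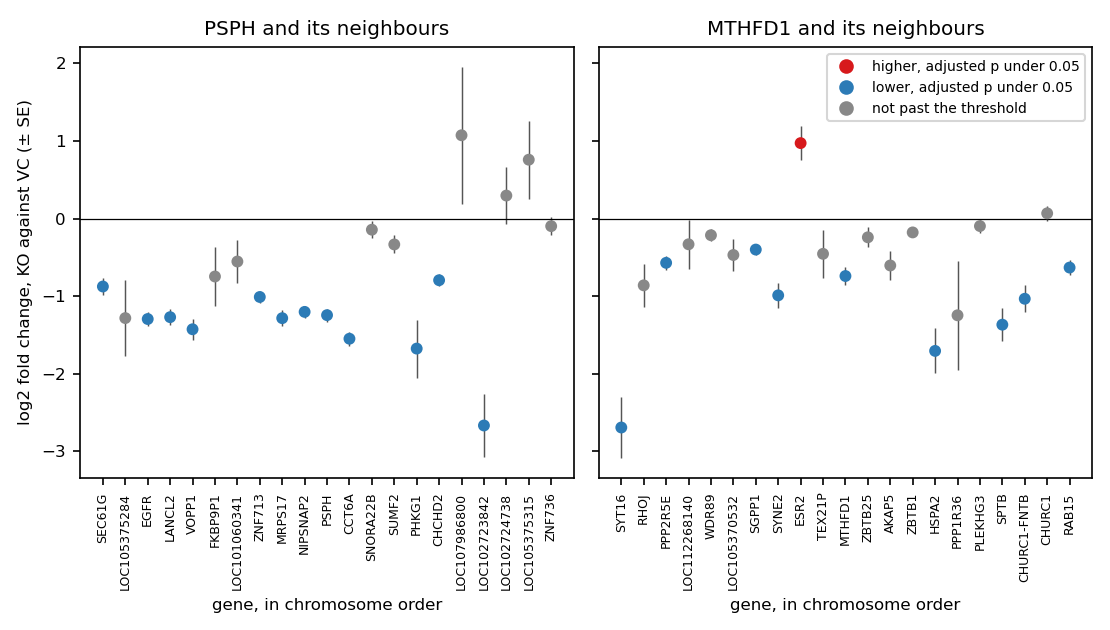
Genes in chromosome order around PSPH (left) and MTHFD1 (right) are placed along the horizontal axis, and the vertical axis is the log2 fold change, KO against VC, ± SE. Around PSPH, 11 of 20 neighbours fell, most of them to between -0.80 and -1.68 like PSPH at -1.25. Around MTHFD1 8 fell and 1 rose, beside 19.8% lower and 13.1% higher of all tested genes.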

How the data were processed

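The libraries (3 VC, 3 CNTNAP4 KO) were sequenced by the authors from RNA of 143B cells. The labels name a stranded mRNA kit, the methods an Illumina NextSeq instrument. The submitters' processing notes name CASAVA, STAR, Partek and the build GRCh38.p13, and the methods name the CLC Genomics software and Partek. The authors deposited log2 signals per gene symbol, and the sorted values of the 6 libraries were nearly identical, as after quantile normalization. The linear unit, annotation, counting method, strand setting and versions are not given in the sources used here, and depth is unknown. An empty cell was treated as missing, and for 29611 genes every cell was empty. No column was left out (0).

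The log2 signals were compared, KO minus VC, in R 4.3.3 with limma 3.58.1 (no trend, two-sided) for the 19306 genes that had 2 or more values per group, and p-values were adjusted over all of them by the Benjamini-Hochberg method. The scripts were tested on simulated data. Fold changes of low signals depend on the absence of a pseudocount. The 35 genes, the other lists and the motifs were chosen with earlier results of these data known, so lists are described by counts and medians without a test. Values per library are given for genes past the threshold with at least a 1.5-fold change, and the 3 largest changes past the threshold are named from each list of further genes. Neighbouring genes, ATF4, CEBPB, CEBPG, MYC, NFE2L2 and the eIF2α kinases were named after their values were seen. So were the mitochondrial folate and glycine genes and the heteromeric carriers outside the 35. Isozyme ratios were compared by an exact permutation test. Promoter windows of 300 bases, and the order of genes, came from RefSeq (GRCh38.p14), matched by symbol. The alternatives were genes with 6 values, genes in the upper 50% of mean signal, and libraries centred on the median of their tested genes. Further ones were 1 added to the linear signal, trend and robust moderation, a replicate block and each library left out in turn.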

Additional observations from a re-analysis of the deposited data

How the results depend on the processing

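Of the alternatives, centring, adding 1 and leaving out a library can change a fold change, and in these 280 fits of the 35 genes the direction changed in 1, for GLUD1, at 0.049 with libraries centred on their median. The number of them past the threshold was 9 with a replicate block, where 7.94% of all genes passed. It was between 9 and 29 in the fits without 1 library, where 6.57% to 47.0% of all genes passed. The 9 that passed with the block were those that passed in every fit without 1 library, with adjusted p-values of at most 0.0467 there. With the block their limma adjusted p-values ran from 0.0479 to 0.0494, close to the threshold. The smallest of all genes in that fit was 0.0479. Without KO replicate 1 the number was 29 (47.0% of all genes passed) and without KO replicate 2 it was 24 (23.6%). Of the 87 further pathway and regulator genes, 52 passed, beside 32.9% of all genes. With the block 15 of them passed, beside 7.94% of all genes. Without 1 library between 13 and 54 passed, beside 6.57% to 47.0% of all genes. Of all genes, 6354 passed, and 5702 among the upper 50% of mean signal (59.1% of the fewer genes tested). With the block 1533 passed, and between 1223 and 8669 without 1 library. The other alternatives moved these counts by less than 1.5 times. Centring changed the split of all genes from 2526 higher and 3828 lower to 3141 and 3066, and the median of all genes from -0.13 to -0.038, which was -0.023 with 1 added to the linear signal. After centring, 23 of the 35 rose and 4 fell.

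Same-numbered VC and KO libraries had correlations of their deviations from the group means of 0.023, 0.0051 and -0.0074, so the libraries were taken to share only a number. The 4 isozyme ratios kept their direction with 1 added and in the 6 fits without 1 library, and the smallest p with the block was 0.25 by an exact sign-flip permutation test, the smallest that 3 pairs allow. Unknown depth limits statements on genes with low signal, such as CTH, SLC6A9, SLC1A3 and SLC36A1.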
